A study of Mus musculus with 4 samples.

Results

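The Bcl2 family genes Bcl2, Bcl2l1, Bcl2l2, Mcl1, Bax, Bak1, Bbc3, Bcl2l11, Bid and Bmf were examined in sorted cells of the embryonic mouse retina. They were chosen by name as the family's main survival and death genes, with earlier results of these data known. Of these 10 genes, 9 had a feature (probe set) on the array that was annotated to that gene alone, each had 1 such feature, and the array covered 18920 genes in this way. Bax had no feature of its own in the annotation used here and was not analysed here. The samples were EGFP-positive and EGFP-negative retinal cells, both sorted from BAC-Crx-EGFP mice on the 129Sv/Ev background at embryonic stage E17.5, with 2 arrays per fraction. In these mice a bacterial artificial chromosome, a long genomic DNA segment, expresses enhanced green fluorescent protein under control of Crx, a transcription factor gene of photoreceptors and their precursors. Every animal used carried the transgene, so the negative fraction is retinal cells without the reporter signal and not a wild type. Whether same-numbered samples came from the same retinas is not stated. The labels do not say how many animals or sorts stood behind an array, so the p-values rest on the spread among these 4 samples alone, and that spread may be technical.

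Bcl2 family proteins decide whether the outer membrane of the mitochondrion stays intact. Bax and Bak1 are effectors that open it and let cytochrome c escape to activate caspases. Bcl2, Bcl2l1 (which encodes Bcl-xL), Bcl2l2 (Bcl-w) and Mcl1 hold them in check. The BH3-only proteins, encoded here by Bcl2l11 (Bim), Bbc3 (Puma), Bid and Bmf, start the process by binding the survival proteins or the effectors. Developing retina loses surplus neurons by this route, and in rodent brain Bcl2 is prominent in development whereas Bcl2l1 is kept in mature neurons.

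The sort separated the marker genes as labelled. Crx had intensities of 3628.7 and 4758.8 in the positive fraction, against 292.2 and 370.1 in the negative fraction, and was 12.6-fold higher (limma adjusted p = 0.00596). Otx2, which acts upstream of Crx, was 3.84-fold higher (limma adjusted p = 0.00655). The sum of 8 amacrine and horizontal cell markers was also higher, at 4932.6 and 6030.4 against 3462 and 3327.5. Markers of cell division ran the other way. The intensities of 11 such genes, of 12 listed, summed to 17076 and 8462.3 in the positive fraction and to 29704.3 and 24071.3 in the negative fraction, and the sum of 7 progenitor genes, of 8 listed, was 16905.5 and 13268.4 against 26390 and 28128.8. Summed microglial markers, 8 of 8, were nearly level at 919.2 and 968 against 998.6 and 922.3. No marker was listed at 0. These are bulk samples, so fewer cells of a type and less RNA per cell cannot be told apart.

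Among the 9 family genes, Bcl2l11 and Bcl2 had lower and Bcl2l1 had higher intensity in the positive cells, and the other 6 differed by at most 0.24 on the log2 scale. Differences are given as EGFP-positive minus EGFP-negative. No family gene passed the test (limma, Benjamini-Hochberg adjusted p under 0.05 over all 22431 features), where 0.963% of all features did, 0.82% as higher and 0.143% as lower. At an unadjusted p under 0.05 there were 3 of 9, against 19.2% of all features. The fractions did not overlap for 6 of 9 genes, against 47.6% of all features. On the positive arrays 3 of these were higher (22.3% of all features) and 3 lower (25.3%). The median log2 difference was -0.11 over the 9 genes and -0.01 over all features. Read against these shares, the counts are no result about the 9 genes as a group.

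**Figure D1:**
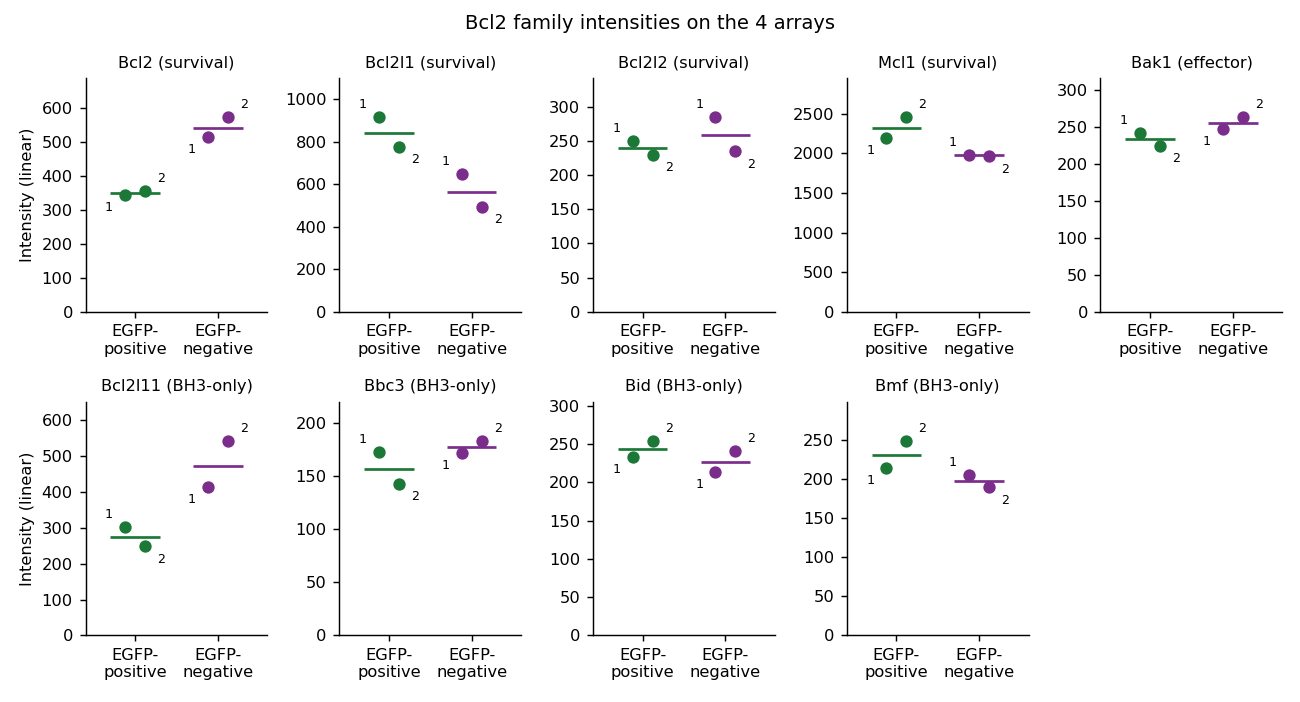
Intensity (linear scale, vertical axis) of the 9 Bcl2 family genes on each array, with EGFP-positive arrays on the left of each panel and EGFP-negative arrays on the right. Points are single arrays numbered by replicate and lines are the mean of the log2 values returned to the linear scale. The Bcl2 and Bcl2l11 points lie lower, and the Bcl2l1 points higher, on both positive arrays than on both negative arrays.

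Bcl2, the founding survival gene of the family (feature 10357043, Entrez gene 12043), read 345.5 and 354.9 in the positive fraction, against 515.3 and 573.9 in the negative fraction. Both positive arrays lay well below both negative arrays, and the positive pair nearly coincided. As log2 intensity this was 8.45 ± 0.03 against 9.09 ± 0.11 (SD, n = 2 each). The log2 difference was -0.64 ± 0.11 (SE), with a 95% interval from -0.91 to -0.36, or 1.55-fold higher intensity in the negative fraction. It did not pass the test (limma adjusted p = 0.0774), and 6.73% of all features differed by at least as much in either direction. A call required a difference of at least 7.65 standard errors, which for Bcl2 meant 0.83 on the log2 scale.

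Bcl2l1 (feature 10488655, Entrez gene 12048) stood the other way. Its intensities were 915.5 and 776.4 in the positive fraction, against 646.2 and 495.4 in the negative fraction. The fractions did not overlap, and replicate 2 was the lower array within each. The log2 difference was 0.58 ± 0.17 (SE), with a 95% interval from 0.15 to 1.004, or 1.49-fold higher in the positive fraction (limma adjusted p = 0.164). The array-to-array differences ran from 0.26 to 0.89. The feature does not separate the long transcript, which encodes the survival protein Bcl-xL, from the short one, whose product Bcl-xS promotes death.

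Replicate 2 also differed from replicate 1 in other genes. The 7 measured genes of the response to dissociation, of 8 listed, summed to 4065.7 and 2120.9 in the positive fraction and to 6101 and 2896.7 in the negative fraction. The 10 ganglion cell genes summed to 7950.7 and 11436.7 against 5190.6 and 11080.4. The sum of 6 endothelial genes fell from 3901.8 to 1855.7 in the positive fraction and from 5607 to 3561.1 in the negative fraction. The cell division sums given above fell in both fractions too. The dissociation, endothelial and cell division sums thus varied with the replicate in the same direction as Bcl2l1. The ganglion cell sum varied in the opposite one. For each replicate number, the dissociation, endothelial and cell division sums were lower in the positive fraction, where Bcl2l1 was higher. The remaining marker lists did not move the same way in both fractions. The part of these lists in the Bcl2l1 values was not tested.

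Mcl1, which encodes a short-lived survival protein, had 2198.3 and 2455.2 in the positive fraction, against 1984.1 and 1963 in the negative fraction. The positive arrays were both higher, by a small margin, with a log2 difference of 0.24 ± 0.11 (SE), a 95% interval from -0.04 to 0.51 and an adjusted p of 0.331 (limma). Bcl2l2 read 249 and 228.9 in the positive fraction, against 284.3 and 234.6 in the negative fraction. Its fractions overlapped, and its difference of -0.11 ± 0.13 had a 95% interval from -0.45 to 0.23 (limma adjusted p = 0.758). The 4 survival genes therefore did not share a direction, with 2 above and 2 below 0.

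Bak1, the 1 effector among the 9 genes, had 241.9 and 224 in the positive fraction, against 246.6 and 262.7 in the negative fraction. The highest positive array was just below the lowest negative array. The log2 difference was -0.13 ± 0.11 (SE), with a 95% interval from -0.40 to 0.14 (limma adjusted p = 0.618). As a ratio of positive to negative that interval ran from 0.76 to 1.10, and it rests on 2 arrays per fraction.

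Bcl2l11, whose product Bim binds all the survival proteins, had the largest difference of the 9 genes. Its feature (10475866, Entrez gene 12125) read 302.2 and 248.3 in the positive fraction, against 414.1 and 542.6 in the negative fraction. Every positive array was below every negative array, but replicates differed more than for Bcl2, and the log2 intensities were 8.10 ± 0.20 against 8.89 ± 0.28 (SD, n = 2 each). The log2 difference was -0.79 ± 0.18 (SE), with a 95% interval from -1.24 to -0.34, or 1.73-fold higher intensity in the negative fraction. It did not pass the test (limma adjusted p = 0.107), for which 1.35 was needed at this spread, and 4.13% of all features differed by at least as much.

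The other BH3-only genes were closer to level. Bbc3, a target of p53, read 173.1 and 142.8 in the positive fraction, against 171.9 and 183.2 in the negative fraction, and positive replicate 1 lay between the negative arrays. Its log2 difference was -0.17 ± 0.13 (SE), with a 95% interval from -0.51 to 0.16 (limma adjusted p = 0.583). Bid, which caspase-8 cleaves to link death receptors to the mitochondrion, had 232.7 and 253.9 in the positive fraction, against 213.8 and 240.6 in the negative fraction. Its fractions overlapped, and the difference was 0.10 ± 0.12, with a 95% interval from -0.19 to 0.39 (limma adjusted p = 0.753). Bmf, whose product is held on the cytoskeleton in healthy cells, read 213.8 and 248.6 in the positive fraction, against 205.6 and 189.4 in the negative fraction. Both positive arrays were higher, by 0.22 ± 0.12 on the log2 scale with a 95% interval from -0.09 to 0.54 (limma adjusted p = 0.420).

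**Figure D2:**
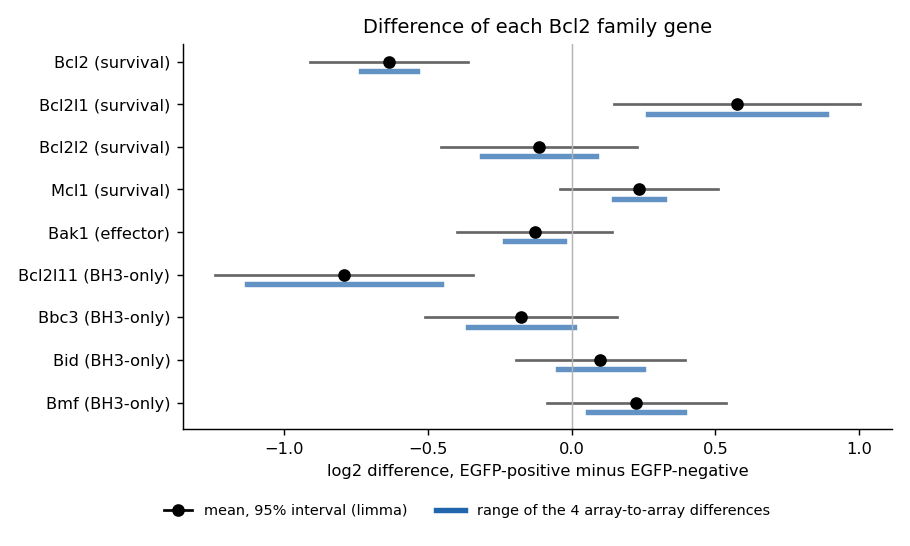
Log2 difference (EGFP-positive minus EGFP-negative, horizontal axis) of the 9 genes. Black points and thin lines are limma's mean difference and 95% interval, and thick lines span the 4 array-to-array differences. The intervals of Bcl2, Bcl2l1 and Bcl2l11 leave out 0 before adjustment over all features, and those of the other 6 genes include it.

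The promoters of the family were read from RefSeq (GRCm38.p6) as the 250 bases before each annotated transcription start, with 17 such windows for the 10 genes. They were searched on both strands for the core TAATCC bound by Crx and Otx2, the core TGTTTAC bound by FOXO factors, and the E2F sequences TTTCGCGC and TTTGGCGC. FOXO factors are known activators of Bcl2l11 and Bbc3, and E2F factors drive genes of cell division. The Crx and Otx2 core was in 1 of the 17 windows, that of Bax, against 6.25% of all 32851 windows. The FOXO core was in 2 of 17, against 3.17% of all windows, and the E2F sequences in 1 of 17, against 0.654%. The windows of measured genes with a match follow in lower case with the match in capitals, each 5′ to 3′ on the gene's strand and ending just before the start. Bcl2l11 has 2 of the 17 windows, Bbc3 3 and Bcl2l1 3, and only 1 window of each held the match. The Bcl2l11 window with the match lies at chr2:128125788-128126037 on the plus strand, with a FOXO match on the opposite strand 227 to 221 bases before the start. The Bbc3 window lies at chr7:16310011-16310260 on the plus strand, with a match 167 to 161 bases before the start. The Bcl2l1 window lies at chr2:152830718-152830967 on the minus strand, with an E2F match read on the opposite strand 145 to 138 bases before the start.
Bcl2l11: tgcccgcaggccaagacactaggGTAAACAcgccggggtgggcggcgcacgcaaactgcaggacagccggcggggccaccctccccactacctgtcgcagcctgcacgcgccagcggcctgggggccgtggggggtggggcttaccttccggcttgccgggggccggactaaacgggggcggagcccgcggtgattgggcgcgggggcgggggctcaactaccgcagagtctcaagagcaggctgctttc
Bbc3: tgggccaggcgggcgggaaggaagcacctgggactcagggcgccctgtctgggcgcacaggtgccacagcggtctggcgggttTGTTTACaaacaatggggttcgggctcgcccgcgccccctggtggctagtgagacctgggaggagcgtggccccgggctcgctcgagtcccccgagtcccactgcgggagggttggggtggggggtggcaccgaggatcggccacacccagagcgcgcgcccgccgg
Bcl2l1: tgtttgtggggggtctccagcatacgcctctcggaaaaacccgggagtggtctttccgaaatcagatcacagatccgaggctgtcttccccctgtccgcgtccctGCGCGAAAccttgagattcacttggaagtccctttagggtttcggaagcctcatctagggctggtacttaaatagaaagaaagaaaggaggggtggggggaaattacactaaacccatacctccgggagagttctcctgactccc

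Bcl2l11 and Bbc3 each hold the FOXO core in a single window, and their differences of -0.79 and -0.17 on the log2 scale were of unequal size. The FOXO genes themselves, chosen after their values were seen, were not called. Foxo3 read 1151.4 and 1105.8 in the positive fraction, against 1036.9 and 978.9 in the negative fraction (log2 difference 0.16 ± 0.10, SE, limma adjusted p = 0.483). Foxo1 differed by 0.09 ± 0.14 and Foxo4 by -0.29 ± 0.18. A match is a description of the letters in the window and says nothing about binding in these cells. Whether FOXO factors had a part in these differences was not tested.

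The genes whose pattern over the 4 arrays was closest to that of Bcl2l11 and of Bcl2 were found by the Euclidean distance between log2 values centred on each gene's mean, among 18919 other genes. For Bcl2l11 these were Fstl1, a secreted glycoprotein gene, at a distance of 0.04, the histone gene H4c14 at 0.09 and Crabp2, a retinoic acid-binding protein gene, at 0.10. Fstl1 read 693.9 and 546.2 in the positive fraction, against 929.6 and 1219 in the negative fraction. H4c14 belongs to a family of near-identical genes, so its reading may hold others. For Bcl2 they were the nucleoporin gene Nup43 at 0.04, Chmp2b, of the membrane-cutting ESCRT-III complex, at 0.05 and Glipr2, of the Golgi, at 0.06. With 4 arrays, such likeness is a description only.

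Leaving out 1 array at a time kept the sign of 8 of the 9 genes, as the plot of differences without each array shows. The exception was Bcl2l2, at 0.025 without negative replicate 1. The log2 difference of Bcl2 ran from -0.71 to -0.56, that of Bcl2l11 from -0.99 to -0.60 and that of Bcl2l1 from 0.38 to 0.77. Bcl2l1 was smallest without negative replicate 2. For genes whose fractions do not overlap, leaving out an array cannot turn the sign.

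**Figure D3:**
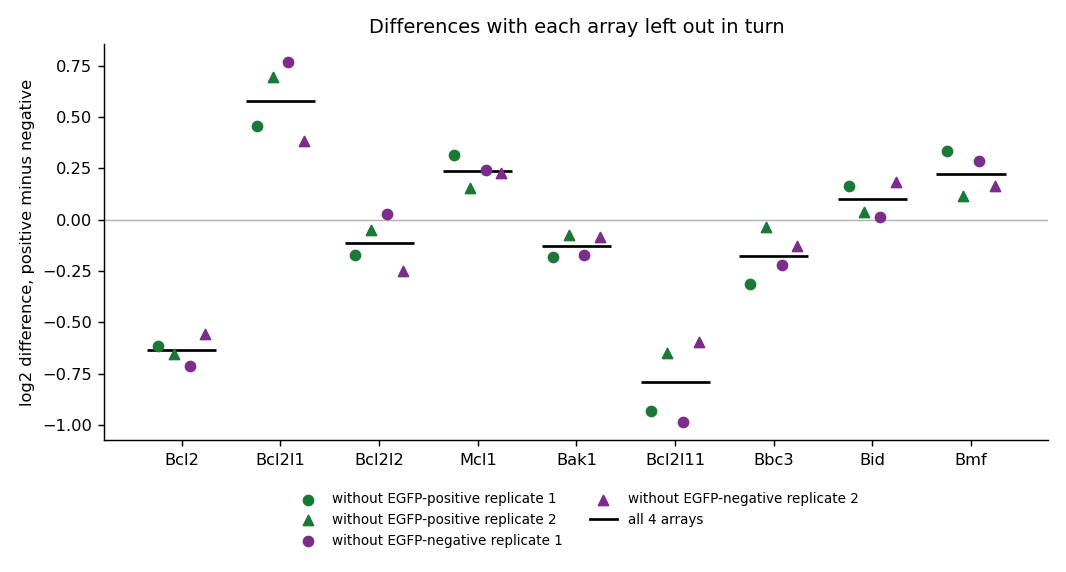
Log2 difference (EGFP-positive minus EGFP-negative, vertical axis) of each gene with all 4 arrays (black line) and with 1 array left out (green, a positive array; purple, a negative array; circles, replicate 1; triangles, replicate 2). Bcl2 moves least among the 3 genes with the largest differences, from -0.71 to -0.56, and Bcl2l2 crosses 0.

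The 6 lists around the family held 12, 13, 6, 14, 15 and 9 measured genes, and 1 gene among them passed the test. Over all features 0.963% did, so a single call is no result about the lists. Trp53inp1, a p53 target whose product takes part in death and autophagy, read 1114.1 and 1398.2 in the positive fraction, against 589.4 and 583.6 in the negative fraction. Both positive arrays were far above the negative ones, which nearly coincided. It rose 2.13-fold (log2 difference 1.09 ± 0.14, SE, limma adjusted p = 0.0474). The call was at the edge: the adjusted p was 0.0648 without positive replicate 2, 0.316 without negative replicate 1, 0.276 without negative replicate 2 and 0.0515 on a log2(value + 16) scale. It passed in the other 7 of 11 alternatives, among them the fit without positive replicate 1 (0.0118). The other 13 measured genes of the p53 list were not called, 2 of them were lower at an unadjusted p under 0.05, against 9.83% of all features, and the list's median was 0.05. Trp53 itself and Cdkn1a had no feature of their own and were not analysed here.

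Most genes of the caspase machinery had lower means on the positive arrays. Of 13 measured genes none was called by limma, and 5 were lower and none higher at an unadjusted p under 0.05 (9.83% and 9.34% of all features). A negative difference was found for 11 of the 13, against 11700 of 22431 features, and the median was -0.19. Casp8, the initiator caspase of death receptors, read 125.1 and 90.8 in the positive fraction, against 219.3 and 192.8 in the negative fraction. Its log2 difference was -0.95 ± 0.18 (SE, limma adjusted p = 0.0859). Casp6, an executioner caspase, read 207 and 225.9 against 373.5 and 327.4, a difference of -0.69 ± 0.12 (limma adjusted p = 0.0785). Both genes separated the fractions.

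Inhibitors of apoptosis had 6 measured genes and none called by limma, with 1 lower at an unadjusted p under 0.05, against 9.83% of all features, and a median of -0.11. A single gene of 6 is near that share. That gene was Birc5, which encodes survivin, a protein of the dividing cell's chromosomes as well as an inhibitor. It read 377.3 and 211.8 in the positive fraction, against 742.6 and 568.4 in the negative fraction (log2 difference -1.20 ± 0.30, SE, limma adjusted p = 0.127). Birc6, a large ubiquitin ligase gene, differed by 0.32 ± 0.13 (limma adjusted p = 0.275). Between fractions, the cell division markers given above had the same direction as Birc5, Bcl2, Bcl2l11, Casp8 and Casp6. Their median log2 difference was -1.24 over 11 genes. From replicate 1 to replicate 2 the cell division sums fell in both fractions, and so did Birc5 and Casp8. Bcl2 instead rose in both (log2 change 0.04 for positive arrays, 0.16 for negative arrays). Bcl2l11 fell among positive arrays (-0.28) and rose among negative arrays (0.39). Casp6 did the reverse (0.13 and -0.19). The part of cell division in the differences between fractions was not tested.

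Among regulators upstream of the family, none of 15 was called by limma, while 4 were higher and 2 lower at an unadjusted p under 0.05, against 9.34% and 9.83% of all features. The median was 0.16. E2f1, a factor of S-phase entry that can also induce death genes, read 703.1 and 366.2 in the positive fraction, against 1226.9 and 979.4 in the negative fraction (log2 difference -1.11 ± 0.32, SE, limma adjusted p = 0.160). Gsk3b, a kinase that marks Mcl1 protein for breakdown, read 3460 and 4003.5 against 2375.5 and 2548.2 (0.60 ± 0.12, limma adjusted p = 0.0907). Both fractions were separate for each gene, E2f1 low and Gsk3b high on the positive arrays.

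Partners at the mitochondrial outer membrane had 9 measured genes and none called by limma, with 4 lower at an unadjusted p under 0.05, against 9.83% of all features, and a median of -0.28. Vdac3, a porin gene, read 665.5 and 654.9 in the positive fraction, against 953.1 and 935.3 in the negative fraction (log2 difference -0.52 ± 0.10, SE, limma adjusted p = 0.0850). Vdac2, whose product binds Bak1 protein, read 2005.9 and 1652.6 against 2431.8 and 2440.5 (-0.42 ± 0.13, limma adjusted p = 0.176). Replicates of Vdac3 differed little within each fraction, and the fractions did not overlap for either gene.

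Other Bcl2 family genes gave 12 measured of 15 listed. None was called by limma, and 1 was lower at an unadjusted p under 0.05, close to the 9.83% of all features. A negative difference was found for 9, against 11700 of 22431 features, and the median was -0.10, close to the -0.11 of the main members. The largest differences were those of Bcl2l12 and Bcl2l15, family genes of less settled function. Bcl2l12 read 324.9 and 274.5 in the positive fraction, against 399 and 393.9 in the negative fraction (log2 difference -0.41 ± 0.12, SE, limma adjusted p = 0.168). Bcl2l15 was dim, at 84.7 and 97.5 against 76.2 and 71.7 (0.30 ± 0.12, limma adjusted p = 0.262).

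**Figure D4:**
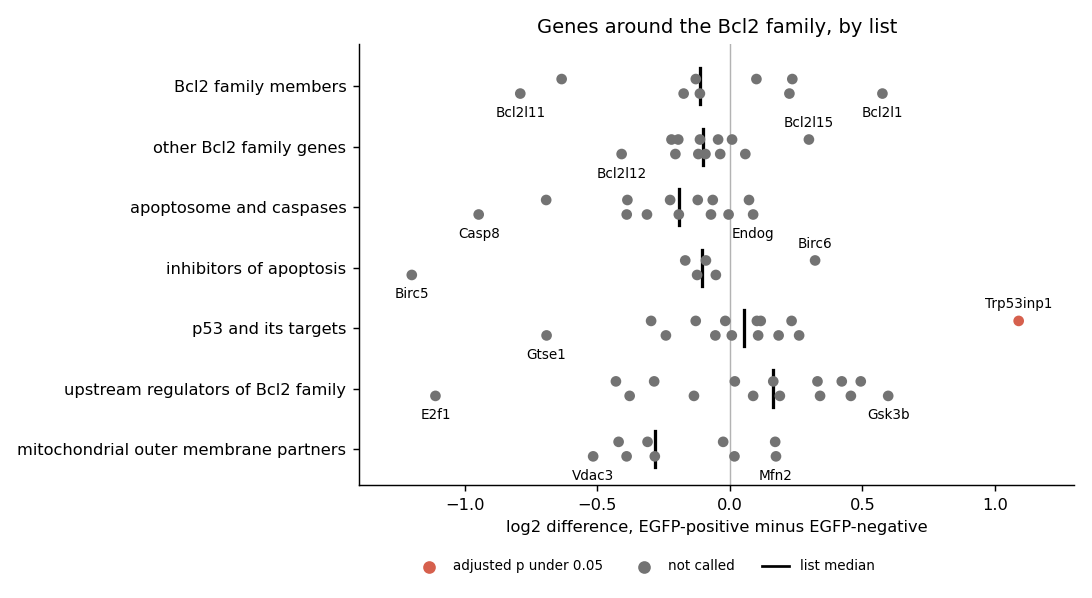
Log2 difference (EGFP-positive minus EGFP-negative, horizontal axis) of every measured gene of the Bcl2 family and of the 6 lists around it. Points are genes, black bars are list medians, and the lowest and highest gene of each list are named. Trp53inp1, at 1.09, is the 1 gene with an adjusted p under 0.05.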

How the data were processed

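RNA of 100 ng per sample was profiled on Affymetrix whole-transcript arrays, 4 in all. The deposited values are intensity values on a linear scale (18.9 to 36625.2, array medians 218.4 to 222.9), and RMA (background correction, normalisation and probe summarisation) and the build mm8 are named in the submitters' processing notes. Its version and any filter are not stated there, and the linear scale was inferred from the range. Log2 was taken with no pseudocount. Each gene was read from its feature with 1 symbol and the highest mean. Members and gene lists were chosen with earlier results of these data known. The fractions were compared with limma 3.58.1 in R 4.3.3 (lmFit, eBayes without trend), two-sided, with Benjamini-Hochberg adjustment over 22431 features, and the replicate number outside the model. The procedure was tested on simulated data. With 4 arrays the exact permutation test cannot go below p = 0.333, and precision is limited by how few arrays there are. The named genes were all members, Crx and Otx2, the 3 nearest patterns to the 2 members with the largest differences, and in each list the called genes or otherwise the 2 largest differences. The Foxo genes were added after their values were seen. Alternatives were another variance prior, scaling, offset, filter, block, and single arrays left out. These arrays' values hold no detection call. All 9 genes had a mean above the 25th percentile of features, an intensity of 107.6.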

Additional observations from a re-analysis of the deposited data

How the results depend on the processing

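Across 11 alternatives, 95 of 99 member values kept their sign and side of the threshold, Bcl2l2 turned to 0.025 without negative replicate 1 (range -0.25 to 0.025 with 1 array left out), and 3 passed the threshold with the replicate block. In that fit, with the replicate number of the titles as a block, 3 of 9 family genes were called, Bcl2 (limma adjusted p = 0.0160), Bcl2l1 (0.0212) and Bcl2l11 (0.0371), as were 1377 features higher and 1500 lower, or 12.8% of all. It also called 2 caspase genes, 1 inhibitor of apoptosis, 2 p53 genes, 5 upstream regulators and 1 outer membrane partner. The labels do not say that a number pairs arrays, and 2 pairs are too few to show it, although the change from replicate 1 to replicate 2 correlated between the fractions over features (r = 0.48). With genes as the mean of their features, 51 were called lower. On a log2(value + 16) scale 0 p53 genes were called. With 1 array left out, where the lone array was assumed to vary like the other fraction, calls ranged from 0 to 667 higher and 0 to 762 lower, against 184 and 32 with all arrays, with the highest counts without positive replicate 1. Limma called 0 in both directions when either negative array was left out, while 2346 (replicate 1 left out) and 3134 (replicate 2 left out) features had an unadjusted p under 0.05. The caspase, inhibitor, upstream and p53 lists each had 0 to 1 called, and the family had 0 throughout. The cause of these changes was not tested.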
